A study of Homo sapiens with 4 samples.

Results

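The genes described here encode subunits of the ATP-dependent chromatin remodelers of the SWI/SNF, ISWI, CHD and INO80 families. They are 54 genes out of the 57820 gene identifiers counted, taken by symbol from a given list of subunits. The list holds 24 SWI/SNF genes, 6 ISWI genes, 8 CHD ATPase genes, 11 further genes of the NuRD complex and 5 genes of the INO80, SRCAP and EP400 complexes. All 54 passed the filter on low counts, with between 23 and 11238 reads per gene and library.

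The RNA came from Daoy, an established human medulloblastoma cell line, as a poly(A)-selected fraction. The library labelled ARID1B shRNA is the single one from a polyclonal Daoy population that carries an ARID1B shRNA in the doxycycline-inducible lentiviral vector tet-pLKO-puro. The other 3 libraries are labelled WT and have the genotype wild-type. All 4 had 1 µg/ml doxycycline for 72 h, per the labels. Vector-only and parental Daoy cells both served as controls per the series design, and which WT library is of which kind is not labelled, so the WT group may mix both. Separate cultures are not stated for the WT libraries, and p-values then measure only the spread between these 3 libraries, which may be technical. The lone ARID1B shRNA library is assumed to vary as they do. Its file number lies outside the run of the WT files, and a batch, if there was one, and the group cannot be told apart.

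ATP-dependent remodelers use the energy of ATP hydrolysis to slide, eject or exchange nucleosomes. SWI/SNF (BAF) complexes open chromatin and contain ARID1A or ARID1B, the gene targeted here, in their canonical form. ISWI complexes space nucleosomes evenly, INO80-family complexes remodel or exchange histone variants such as H2A.Z, and the CHD family is diverse. NuRD couples the CHD3 or CHD4 ATPase to histone deacetylases and is mostly associated with repression and with tuning of enhancers. In medulloblastoma, SMARCA4 and CHD7 are among the recurrently mutated genes.

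Of the 54 genes 33 overlap the exons of another gene, 29 of them on the opposite strand, and 7 have named pseudogene copies, so part of their reads is uncertain. Levels are given as library-scaled CPM, reads of a gene per unit of library size, after the libraries were scaled to each other. The library labelled ARID1B shRNA held 8792848 reads in genes and the WT libraries held 12619786, 13228587 and 15390106. Of 13 neural and cerebellar marker genes, ATOH1 was at 0 in every library. Summed over these genes, the library labelled ARID1B shRNA had 1035 CPM and the WT libraries had 2521 to 2754 CPM. VIM made up most of that sum, at 937 CPM against 2439 to 2658 CPM. Other genes of the list went both ways. ZIC2 (24.75 against 8.14 to 10.6 CPM) and GLI2 (14.83 against 5.80 to 9.76 CPM) lay above every WT library, and SOX2, MEIS1 and OTX2 lay below. By edgeR at an adjusted p below 0.05, 1 of the 11 tested was called higher and 1 lower, against 3.65% and 0.834% of all genes. All 5 blood markers and the 2 endothelial markers matched were under 1 CPM in every library. The summed level of 4 epithelial markers was 390 CPM against 231 to 333 CPM, with EPCAM and CDH1 under 2 CPM, and that of 5 fibroblast markers was 3655 CPM against 3790 to 5813 CPM. Of these 5, COL1A1 (2691 against 1661 to 2995 CPM) and THY1 (88.5 against 84.6 to 133 CPM) lay inside the WT range. COL3A1 (85.1 against 626 to 1349 CPM), COL1A2 (775 against 1271 to 2050 CPM) and PDGFRB (14.9 against 33.7 to 102 CPM) lay below it. The part of these markers in the results was not tested.

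ARID1B itself went against the label. It measured 175 CPM, from 1533 reads, in the library labelled ARID1B shRNA, against 164, 88.0 and 72.9 CPM in WT libraries 1, 2 and 3. As measured the shRNA library lay above every WT library, and WT library 1 stood close to it. Its log2 fold change, with the standard error (SE) after it, was 0.69 (SE 0.46, edgeR adjusted p = 0.399). With WT library 1 left out it was 1.12 (edgeR adjusted p = 0.026). With the trend on GC content and transcript length removed (described below), ARID1B measured 165 CPM against 170, 97.7 and 67.4 CPM. That lay inside the WT range, with a log2 fold change of 0.57 (SE 0.55, edgeR adjusted p = 0.587). Higher and lower below therefore describe the shRNA library by its label, and not a measured loss of ARID1B mRNA.

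Among the remodeler genes, 3 NuRD genes stood out: MBD3, MTA1 and GATAD2A were 6.20-fold, 3.61-fold and 2.68-fold higher in the library labelled ARID1B shRNA, and a SWI/SNF gene, BCL7B, was 2.04-fold higher. These 4 of 54 genes (7.41%) passed the test in the higher direction, by edgeR's quasi-likelihood test with p-values adjusted over all 17024 tested genes and a threshold of 0.05. The share of all tested genes called higher was 3.65%. None of the 54 was called lower by edgeR, against 0.834% of all genes, and by an unadjusted p below 0.05 there were 10 higher and 2 lower, where 15.6% and 9.79% of all genes were. DESeq2 called 6 higher and 1 lower, SMARCA1, against 7.85% and 2.58% of all genes. In RNA from a whole culture, more cells of a kind and more mRNA per cell cannot be told apart. The median log2 fold change was -0.03 over the 54 genes and -0.05 over all tested genes. In the library labelled ARID1B shRNA 21 of the 54 lay above every WT library (38.9%, against 35.4% of all genes), 21 lay below every WT library (38.9%, against 37.9%) and 12 lay inside the WT range.

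The libraries also differed by the GC content of the transcripts, and this touches every value given here. Over all genes the median log2 fold change was -0.27 in the decile of lowest GC content and 1.26 in the decile of highest. Each main result is therefore given a second time with each library's smooth trend on GC content and transcript length removed. With the trend removed, edgeR called 4 of the 54 genes higher and none lower, against 1.98% and 0.816% of all genes, and by an unadjusted p below 0.05 there were 7 higher and 8 lower (12.4% and 11.0% of all genes). Over all genes the calls were 621 higher and 142 lower as measured, and 337 and 139 with the trend removed. After this correction 18 of the 54 lay above every WT library and 20 below, where 34.0% and 36.4% of all genes did. MBD3, MTA1 and GATAD2A were called both ways, BCL7B as measured only and CHD2 only after trend removal.

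**Figure D1:**
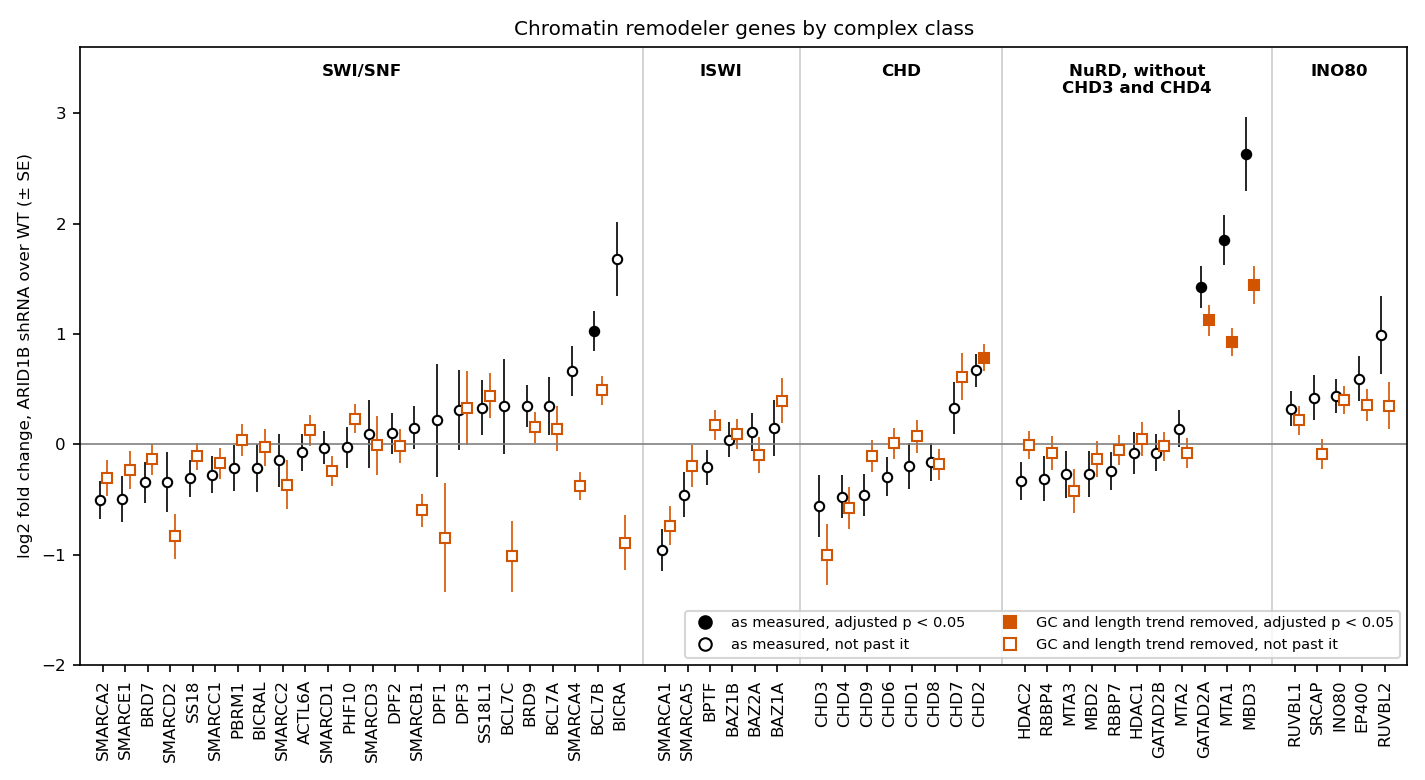
Log2 fold change (vertical axis, ± SE) of the 54 remodeler genes in the library labelled ARID1B shRNA over the 3 WT libraries, grouped by class and ordered within each class. Circles are values as measured, squares are those corrected for the GC and length trend; filled symbols passed an adjusted p of 0.05. MBD3, MTA1 and GATAD2A are filled both ways, BCL7B only as a circle and CHD2 only as a square.

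NuRD is built from a CHD3 or CHD4 ATPase, MTA scaffolds, GATAD2 linkers, an MBD2 or MBD3 protein, HDAC1 and HDAC2, and the histone chaperones RBBP4 and RBBP7. The 3 genes that rose each encode 1 alternative of a paralogous position, and their promoters are printed here because they carry the clearest difference among the members. The sequences are the 250 bases before the RefSeq gene start in GRCh38.p14, 5′ to 3′ on the gene's strand, at chr14:105419577-105419826 (plus strand) for MTA1, chr19:19385593-19385842 (plus strand) for GATAD2A and chr19:1592866-1593115 (minus strand) for MBD3. The bases just after these starts occur in a GENCODE 29 transcript of MTA1 and of GATAD2A but in none of MBD3, so the start used for MBD3 is RefSeq's alone. Capitals mark matches to the GC box GGGCGG, the core of the Sp1 motif, on either strand.
MTA1: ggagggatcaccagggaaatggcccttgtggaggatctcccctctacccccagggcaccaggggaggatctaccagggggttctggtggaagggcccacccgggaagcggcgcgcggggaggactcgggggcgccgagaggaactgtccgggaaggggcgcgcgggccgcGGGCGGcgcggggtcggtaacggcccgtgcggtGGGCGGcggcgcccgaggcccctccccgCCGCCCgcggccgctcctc
GATAD2A: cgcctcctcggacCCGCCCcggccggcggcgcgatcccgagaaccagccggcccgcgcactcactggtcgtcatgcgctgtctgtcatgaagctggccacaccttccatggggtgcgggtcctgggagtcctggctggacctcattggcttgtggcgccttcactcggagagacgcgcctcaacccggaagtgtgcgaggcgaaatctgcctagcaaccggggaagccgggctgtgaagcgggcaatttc
MBD3: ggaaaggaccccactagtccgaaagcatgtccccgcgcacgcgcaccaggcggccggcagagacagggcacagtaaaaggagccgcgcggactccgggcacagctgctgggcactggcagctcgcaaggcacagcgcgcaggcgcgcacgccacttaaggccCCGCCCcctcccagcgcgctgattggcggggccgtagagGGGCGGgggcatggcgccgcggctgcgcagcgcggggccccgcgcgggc
These windows held 3, 1 and 2 GC boxes, and 42.6% of the 35116 promoter windows in the RefSeq table held at least 1. Their GC content was 76.8% for MTA1, 67.2% for GATAD2A and 74.8% for MBD3, with 30, 25 and 32 CpG dinucleotides. The median over all windows was 58% with 11 CpG. The 47 remodeler genes with a window in the table had a median of 68% with 25 CpG, so the 3 promoters had as many CpG as the median gene of the list or more. The paralogues that did not pass the test had promoters on both sides of these values: the GC content was 63.2% for MTA2, 60.8% for GATAD2B and 66.4% for MBD2, and 79.2% for MTA3, whose window held 41 CpG and 4 GC boxes. GC boxes were present in 36 of the 47 windows. An E-box (CACGTG, 6.35% of all windows) was present in 3 of the 47, and the CRE (TGACGTCA, 1.65%) and the ATF4 element (TGATGNAA, 3.14%) in none, each searched on both strands.

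MBD3 encodes the methyl-CpG-binding-domain protein of NuRD that, unlike MBD2, binds methylated DNA poorly. It measured 82.8 CPM (95% Poisson interval 76.9 to 89.1, from 726 reads) in the library labelled ARID1B shRNA, against 13.3, 9.20 and 17.5 CPM in the WT libraries. No WT library came near that value. This gave a log2 fold change of 2.63 (SE 0.33, edgeR adjusted p = 0.0267) and 1.45 with the trend removed (SE 0.17, edgeR adjusted p = 0.025), where the levels were 43.7 CPM against 16.9, 14.2 and 16.9 CPM. The transcript has a GC content of 62.5%. MBD3 overlaps the exons of a gene on its own strand and of 1 on the opposite strand, and the strand setting of the counting is not given in the sources used here, so part of its reads is uncertain. Its paralogue MBD2, which binds methylated CpG, measured 58.1 CPM against 69.2, 78.6 and 62.5 CPM (edgeR log2 fold change -0.27, adjusted p = 0.449).

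MTA1, a scaffold subunit that binds and activates the deacetylases, measured 136 CPM (95% Poisson interval 128 to 144) in the library labelled ARID1B shRNA, against 37.3, 30.9 and 44.7 CPM in the WT libraries. The groups did not overlap. The log2 fold change was 1.85 (SE 0.23, edgeR adjusted p = 0.0234) as measured and 0.93 (SE 0.13, edgeR adjusted p = 0.032) with the trend removed, at 83.2 CPM against 44.6, 44.0 and 42.9 CPM. MTA1 has a GC content of 61.6% and also overlaps exons of other genes, TEX22 on the same strand and another on the opposite one. The other scaffold genes did not pass the test. MTA2, the most abundant of them per length, measured 200 CPM against 193, 167 and 183 CPM (edgeR adjusted p = 0.632), and MTA3 measured 44.3 CPM against 60.2, 50.6 and 49.8 CPM (edgeR adjusted p = 0.453).

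GATAD2A encodes p66-alpha, which links the ATPase to the rest of the complex through the MBD protein. It measured 180 CPM (95% Poisson interval 171 to 189) in the library labelled ARID1B shRNA, against 58.4, 65.7 and 76.5 CPM in the WT libraries, again with no overlap. This gave a log2 fold change of 1.42 (SE 0.19, edgeR adjusted p = 0.0278) as measured and 1.12 (SE 0.14, edgeR adjusted p = 0.0291) with the trend removed. Its GC content of 55.3% is lower than that of MBD3 and MTA1. In the GC decile it belongs to, 53.79% to 57.24%, the median log2 fold change of all genes was 0.19, against 1.26 in the decile of MBD3 and MTA1. GATAD2A overlaps the exons of no other gene. Its paralogue GATAD2B measured 77 CPM against 85.2, 78.9 and 79.4 CPM (edgeR log2 fold change -0.08, adjusted p = 0.804).

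The 3 calls depended on which WT libraries were kept. As measured, MBD3 and MTA1 passed without each WT library in turn, with an edgeR adjusted p of 0.0131 to 0.049 for MBD3 and 0.00889 to 0.049 for MTA1, and GATAD2A missed the threshold without WT library 2 (edgeR adjusted p = 0.0589). With the trend removed all 3 passed without WT library 1. Under the same correction the edgeR adjusted p of these genes was 0.0628 to 0.0846 without WT library 2 and 0.109 to 0.132 without WT library 3. In these fits the log2 fold changes were 1.36 to 1.47 for MBD3, 0.90 to 0.93 for MTA1 and 1.04 to 1.16 for GATAD2A. Without WT library 3 and with the trend removed, edgeR called no gene of the 16752 tested, while 1495 were higher and 1250 lower at an unadjusted p below 0.05.

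The remaining NuRD genes gave no call. HDAC2, a class I histone deacetylase, measured 183 CPM in the library labelled ARID1B shRNA against 226, 251 and 216 CPM in the WT libraries (log2 fold change -0.33, edgeR adjusted p = 0.288). RBBP4, a histone chaperone shared with other complexes, measured 167 CPM against 224, 223 and 176 CPM (edgeR log2 fold change -0.31, adjusted p = 0.386). Both lay below every WT library as measured and inside the WT range with the trend removed. HDAC1 lay inside the WT range, and RBBP7 below it. RBBP4 and HDAC1 have 6 and 2 named pseudogene copies that could take part of their reads. Of the 11 genes, 4 lay above every WT library as measured (36.4%, against 35.4% of all genes) and 6 below (54.5%, against 37.9%). With the trend removed 3 lay above and 1 below, where 34.0% and 36.4% of all genes did. The class median was -0.08 as measured and -0.02 with the trend removed.

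**Figure D2:**
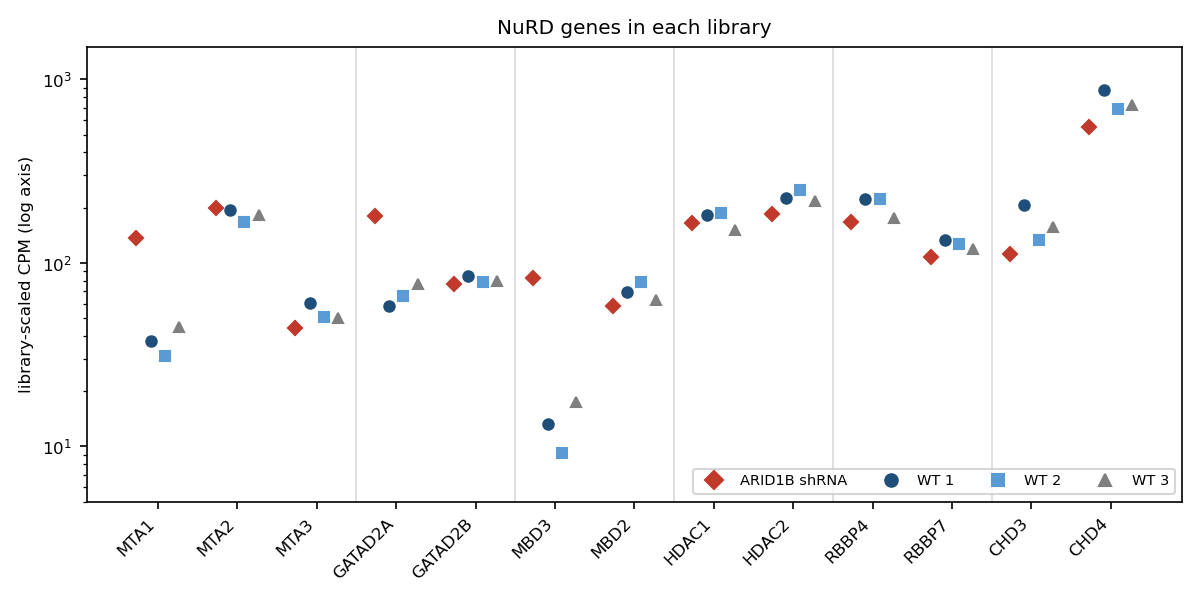
Library-scaled CPM (log axis) of the 13 NuRD genes, CHD3 and CHD4 included, with 1 symbol per library: red diamonds for the library labelled ARID1B shRNA, left of the WT libraries. The diamonds of MTA1 (136 CPM), GATAD2A (180 CPM) and MBD3 (82.8 CPM) stand clear of their WT symbols, and those of MTA2, GATAD2B and MBD2 do not.

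The SWI/SNF class held 24 genes, of which 1 (4.17%), BCL7B, was called higher by edgeR and 23 did not pass the test. That share was close to the 3.65% of all tested genes called higher. With the trend removed 0 of the 24 were called higher, against 1.98% of all genes. BCL7B, a small accessory subunit of BAF complexes, measured 163 CPM in the library labelled ARID1B shRNA against 75.0, 75.3 and 89.5 CPM in the WT libraries. The log2 fold change was 1.03 (SE 0.18, edgeR adjusted p = 0.0402), and the shRNA library lay well above the WT range. After trend removal it was 0.49 (SE 0.13, edgeR adjusted p = 0.113), still above every WT library. The edgeR adjusted p was 0.0772 without WT library 2 and 0.058 without WT library 3. BCL7B has a GC content of 59.1% and overlaps no other gene. In the library labelled ARID1B shRNA its paralogues BCL7A and BCL7C measured 31.1 and 9.92 CPM, against 20.6 to 29 CPM and 4.95 to 9.44 CPM in the WT libraries, and did not pass the test.

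BICRA, a defining subunit of non-canonical BAF together with BRD9, had the largest log2 fold change of the class but missed the threshold. It measured 23.3 CPM in the library labelled ARID1B shRNA against 6.75, 5.57 and 9.37 CPM in the WT libraries (log2 fold change 1.68, SE 0.33, edgeR adjusted p = 0.0531). With a GC content of 68.6%, the highest of the 54, its direction turned with the trend removed (log2 fold change -0.89, SE 0.25, edgeR adjusted p = 0.118). As measured BICRA passed by DESeq2 (DESeq2 adjusted p = 0.00415), limma-voom (limma-voom adjusted p = 0.0451) edgeR with RLE scaling (edgeR adjusted p = 0.0473) and edgeR without WT library 1 (edgeR adjusted p = 0.0414). Its paralogue BICRAL measured 43.5 CPM against 54.9, 52.7 and 43.7 CPM, and BRD9 measured 62.7 CPM against 48.5, 46.1 and 53.3 CPM. Neither passed the test.

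The ATPase genes of SWI/SNF lay on opposite sides of the WT range. SMARCA4 (BRG1) measured 310 CPM in the library labelled ARID1B shRNA against 192, 162 and 234 CPM in the WT libraries (log2 fold change 0.66, SE 0.23, edgeR adjusted p = 0.148). SMARCA2 (BRM) measured 133 CPM against 196, 174 and 197 CPM (edgeR log2 fold change -0.51, SE 0.17, adjusted p = 0.147). SMARCA4 has a GC content of 61.4% and SMARCA2 of 42.9%. Corrected for the trend, both lay below every WT library, at -0.38 for SMARCA4 and -0.31 for SMARCA2, so the opposite directions held only as measured.

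The core genes are SMARCB1, SMARCC1, SMARCC2, SMARCD1, SMARCD2, SMARCD3, SMARCE1 and ACTL6A, and none passed the test by edgeR or DESeq2, nor at an unadjusted p below 0.05 by edgeR. SMARCE1, the HMG-box subunit, had the largest decrease among them as measured, with 44.8 CPM in the library labelled ARID1B shRNA against 70.6, 61.1 and 58.1 CPM in the WT libraries (log2 fold change -0.50, edgeR adjusted p = 0.204); 7 named pseudogene copies make its counts uncertain. SMARCB1, the subunit lost in rhabdoid tumours, measured 131 CPM against 123, 103 and 128 CPM (edgeR log2 fold change 0.15, adjusted p = 0.654) and -0.60 once the trend was removed (edgeR adjusted p = 0.101). SMARCD2, a variant core subunit, measured 73.9 CPM against 108, 71.7 and 101 CPM (edgeR log2 fold change -0.34, adjusted p = 0.469) and had the largest decrease of the core genes after trend removal, -0.84 (SE 0.20, edgeR adjusted p = 0.0944). Over the 8 core genes the log2 fold changes ran from -0.50 to 0.15 as measured. Of these genes 5 lay inside the WT range, where 4540 of all 17024 tested genes lay. With the trend removed they ran from -0.84 to 0.12, and 6 of the 8 lay below every WT library (36.4% of all genes did). After this correction 2 were lower at an unadjusted p below 0.05 by edgeR, against 11.0% of all genes. The 3 PBAF genes PBRM1, BRD7 and PHF10 ran from -0.34 to -0.03. The 8 accessory genes ran from -0.31 for SS18 to 1.03 for BCL7B, with 7 of 8 above 0 as measured and 4 of 8 with the trend removed. Of all 17024 tested genes, 7972 were above 0 as measured and 8021 with the trend removed. The median of the accessory genes was 0.32 as measured and 0.06 with the trend removed. Over the whole class 9 genes lay above every WT library as measured (37.5%, against 35.4% of all genes) and 6 below (25%, against 37.9%). With the trend removed 6 of the 24 lay above and 13 below, where 34.0% and 36.4% of all genes did. The class median turned from 0.04 as measured to -0.12 with the trend removed.

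In the CHD class no gene passed edgeR's test as measured. At an unadjusted p below 0.05 by edgeR, 1 of 8 was higher, where 15.6% of all genes were. With the trend removed 1, CHD2, was called higher, against 1.98% of all genes. CHD2, a remodeler of transcribed chromatin that deposits histone H3.3, measured 212 CPM in the library labelled ARID1B shRNA against 132, 139 and 130 CPM in the WT libraries. The WT libraries were close together and the shRNA library lay clear of them. The log2 fold change was 0.67 (SE 0.15, edgeR adjusted p = 0.0694) as measured and 0.79 (SE 0.12, edgeR adjusted p = 0.0402) with the trend removed. At a GC content of 46.8% the trend correction raised its value, and with the trend removed the edgeR adjusted p was 0.0323, 0.0903 and 0.163 without WT libraries 1, 2 and 3. DESeq2 called CHD2 as measured (DESeq2 adjusted p = 0.0276). The related CHD1, which binds methylated H3K4 through its chromodomains, measured 110 CPM against 114, 147 and 118 CPM (edgeR log2 fold change -0.20, adjusted p = 0.583).

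CHD3 and CHD4 were both below every WT library and did not pass the test. CHD4, the main ATPase of NuRD in most tissues, measured 548 CPM in the library labelled ARID1B shRNA against 872, 690 and 723 CPM in the WT libraries (log2 fold change -0.48, edgeR adjusted p = 0.202). CHD3 measured 112 CPM against 207, 134 and 157 CPM (edgeR log2 fold change -0.56, adjusted p = 0.269). The corresponding values with the trend removed were -0.58 for CHD4 and -1.001 for CHD3 (edgeR adjusted p = 0.156 and 0.124). The NuRD ATPase genes and the 3 NuRD genes that rose thus lay on opposite sides of the WT range both ways, while the difference between them was not tested.

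Among the other CHD genes, CHD7, which is mutated in CHARGE syndrome, measured 97.9 CPM in the library labelled ARID1B shRNA against 74.8, 93.5 and 65.9 CPM in the WT libraries (edgeR log2 fold change 0.33, SE 0.23, adjusted p = 0.424; 0.61, SE 0.21, adjusted p = 0.171 with the trend removed). CHD8, an autism-associated gene, measured 191 CPM against 232, 204 and 202 CPM (edgeR log2 fold change -0.16, SE 0.17, adjusted p = 0.596; -0.18 with the trend removed). CHD6 measured 63.1 CPM against 82.1, 74.7 and 75.0 CPM (edgeR log2 fold change -0.29, SE 0.18, adjusted p = 0.348; 0.011 with the trend removed). CHD9 measured 47.1 CPM against 68.8, 66.2 and 59.5 CPM (edgeR log2 fold change -0.46, SE 0.19, adjusted p = 0.206; -0.11 with the trend removed). All 8 CHD genes lay outside the WT range as measured, 2 above (CHD2 and CHD7) and 6 below, against 35.4% and 37.9% of all genes. After the correction 2 lay above and 4 below (34.0% and 36.4% of all genes), and the class median was -0.05, against -0.25 as measured.

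In the ISWI class none of 6 genes passed edgeR's test. At an unadjusted p below 0.05 by edgeR 1 was lower, where 9.79% of all genes were. SMARCA1 (SNF2L), an ATPase with roles in neural development, came closest, with 95.6 CPM in the library labelled ARID1B shRNA against 206, 180 and 172 CPM in the WT libraries (log2 fold change -0.96, SE 0.19, edgeR adjusted p = 0.0534). Trend removal left it at -0.74 (edgeR adjusted p = 0.09), and DESeq2 as measured gave -0.93 (DESeq2 adjusted p = 0.0045). It was the largest decrease of the 54 genes as measured. Its paralogue SMARCA5 (SNF2H), the more widely expressed ISWI ATPase, measured 132 CPM against 155, 200 and 188 CPM (edgeR log2 fold change -0.46, adjusted p = 0.235) and lay inside the WT range with the trend removed. Among the partner subunits, BAZ1A (ACF1) measured 128 CPM against 97.3, 143 and 105 CPM (edgeR log2 fold change 0.15, SE 0.26, adjusted p = 0.748; 0.39 with the trend removed). BAZ2A (TIP5), the partner in the nucleolar complex NoRC, measured 232 CPM against 195, 221 and 227 CPM (edgeR log2 fold change 0.11, SE 0.17, adjusted p = 0.71; -0.10 with the trend removed). BPTF, the reader subunit of NURF, and BAZ1B (WSTF) had log2 fold changes of -0.21 and 0.04.

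In the INO80 class none of 5 genes passed the test by edgeR or DESeq2. At an unadjusted p below 0.05 by edgeR 3 were higher as measured and 1 with the trend removed, against 15.6% and 12.4% of all genes. All 5 lay above every WT library as measured, where 35.4% of all genes did, a count over few genes. RUVBL2, an AAA+ ATPase shared by these complexes, measured 277 CPM in the library labelled ARID1B shRNA against 127, 98.9 and 191 CPM in the WT libraries (log2 fold change 0.99, SE 0.36, edgeR adjusted p = 0.168). Its partner RUVBL1 measured 130 CPM against 109, 101 and 103 CPM (edgeR log2 fold change 0.32, adjusted p = 0.266). The WT spread of RUVBL2 was wide and that of RUVBL1 narrow. RUVBL2 has a GC content of 60.1%, and with the trend removed its log2 fold change was 0.35. It then measured 194 CPM against 146, 129 and 183 CPM. For RUVBL1 the log2 fold change with the trend removed was 0.22.

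The ATPase gene INO80 measured 118 CPM in the library labelled ARID1B shRNA against 88.2, 86.5 and 87.2 CPM in the WT libraries (log2 fold change 0.44, edgeR adjusted p = 0.158). EP400, the ATPase of the TIP60 complex, measured 102 CPM against 70.2, 57.1 and 74.2 CPM (edgeR log2 fold change 0.60, adjusted p = 0.148). SRCAP, which loads H2A.Z, measured 188 CPM against 142, 120 and 158 CPM (edgeR log2 fold change 0.42, adjusted p = 0.254). With the trend removed the log2 fold changes were 0.40 for INO80 and 0.36 for EP400. The class median was 0.35 with the trend removed, against 0.44 as measured. After the correction 4 of the 5 genes remained above every WT library (34.0% of all genes did), while SRCAP lay below at -0.09. The class had a median GC content of 55.02%, the highest of the 5 classes.

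The GC values of the members ran with their changes. Of 17 members under 45% GC content, 16 had a negative log2 fold change. The median of these 17 was -0.31, against -0.27 for all genes in that range. All 7 members at 60% or more had a positive one, with a median of 0.99, against 1.13 for all genes in that range. The share of all genes with each sign in these ranges was not computed. Over all tested genes with GC content the Spearman correlation with the change as measured was 0.47. Across the 54 genes, which share libraries and are not independent, the change ran with GC content at a Spearman correlation of 0.63 and a Pearson correlation of 0.66, and at -0.11 and -0.10 with the trend removed. The trend correction turned the sign of 17 of the 54 genes, among them SMARCA4, SMARCB1 and BICRA. MBD3, MTA1 and GATAD2A, set against the median of all genes at like GC content, lay above it both as measured and with the trend removed. They were picked as the genes called higher both ways, so this place follows from the choice and is no separate result. What set the GC trend apart between libraries was not tested.

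**Figure D3:**
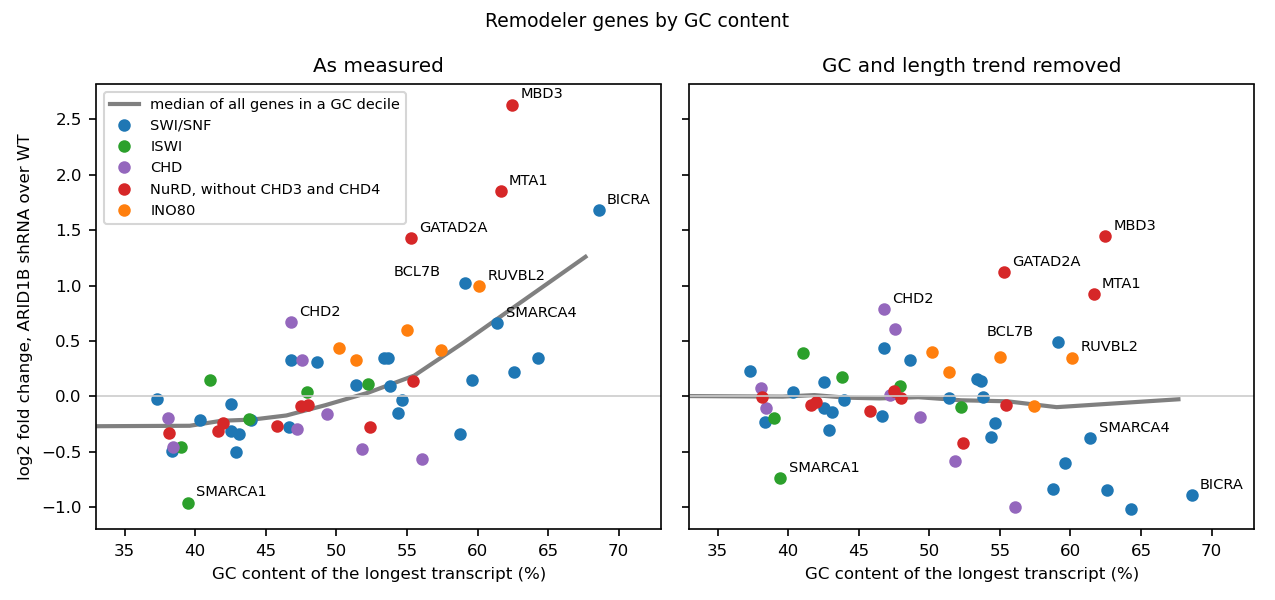
Log2 fold change of the 54 remodeler genes (vertical axis, library labelled ARID1B shRNA over WT) against the GC content of the longest transcript (horizontal axis, %), as measured on the left and after removal of the GC and length trend on the right. Points are genes coloured by class and the grey line is the median of all genes in each GC decile, running from -0.27 to 1.26 on the left; MBD3, MTA1 and GATAD2A lie above the line in both panels and BICRA only in the left one.

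Several remodeler positions are filled by either of 2 paralogues, and the ratio between the 2 levels was compared within each library for 21 pairs. Levels for these ratios were scaled by exon length. In the library labelled ARID1B shRNA the ratio lay outside the WT range for 14 pairs, 11 above and 3 below, and for 16 pairs with the trend removed. Lying outside was common for single genes too: 35.4% of all tested genes lay above every WT library and 37.9% below. With the trend removed these shares were 34.0% and 36.4%. The share over other gene pairs was not computed. For 10 pairs it lay outside on the same side both ways. The ratios are given as a description with no test; a permutation test of 1 library against 3 could not give a p below 0.25.

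The MBD3/MBD2 log2 ratio was 0.08 in the library labelled ARID1B shRNA and -2.81, -3.53 and -2.27 in the WT libraries as measured. MBD3 and MBD2 mRNA were then about equal per exon length in the shRNA library, while MBD2 prevailed in each WT library. By the longest transcript's length the ratio was 0.42 in the shRNA library and -2.47, -3.18 and -1.92 in the WT libraries. MBD3 was then the more abundant of the 2 in the shRNA library. With the trend removed, the shRNA library had 43.7 CPM of MBD3 and 62.2 CPM of MBD2. MBD3 has the longer exon union (7845 against 5810 bases), so MBD2 prevailed per exon length in the shRNA library after this correction. The GATAD2A/GATAD2B log2 ratio was 1.56 against -0.20, 0.08 and 0.29, and the MTA1/MTA2 log2 ratio was -1.27 against -3.09, -3.15 and -2.75. MTA2 remained the more abundant MTA mRNA per length in every library. After trend removal these ratios still lay 1.59, 1.15 and 1.004 above the WT means, for MBD3/MBD2, GATAD2A/GATAD2B and MTA1/MTA2 in that order.

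For some other pairs the position depended on the correction. The SMARCA4/SMARCA2 log2 ratio was 1.46 in the library labelled ARID1B shRNA against 0.21, 0.13 and 0.49 in the WT libraries, and lay inside the WT range with the trend removed. The BICRA/BICRAL ratio lay 1.93 above the WT mean as measured and 0.87 below it with the trend removed. HDAC1/HDAC2 shifted by 0.25 as measured, above every WT library, and lay inside the WT range with the trend removed. SMARCA5/SMARCA1 and CHD1/CHD2 lay outside the WT range on the same side both ways. The SMARCA5/SMARCA1 log2 ratio was -0.48 against -1.36, -0.79 and -0.82, a shift of 0.51 as measured and 0.54 with the trend removed. The CHD1/CHD2 log2 ratio was -0.25 against 0.49, 0.78 and 0.56, and CHD2 was the more abundant of the 2 per exon length only in the shRNA library, although by the longest transcript's length the WT ratios were close to 0 (0.0033 to 0.29). RBBP4/RBBP7 shifted by -0.06 and lay inside the WT range.

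**Figure D4:**
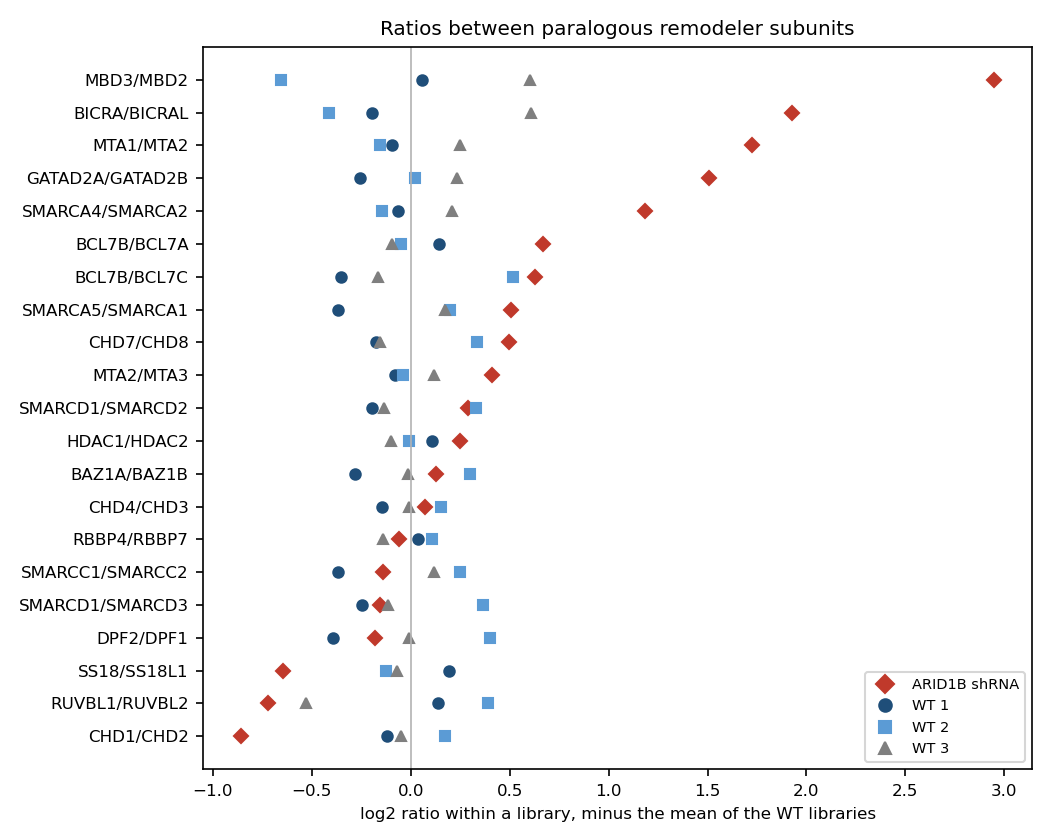
Log2 ratio between paralogous subunits within each library, minus the mean of the 3 WT libraries (horizontal axis), for 21 pairs ordered by the value in the library labelled ARID1B shRNA. Red diamonds are the library labelled ARID1B shRNA and blue and grey symbols the WT libraries; MBD3/MBD2 is shifted furthest, by 2.95, and CHD1/CHD2 furthest the other way, by -0.86.

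A further list of 52 genes of these complexes and of related SNF2-type ATPases was examined beside the 54. Of the 51 tested, edgeR called 1 higher and none lower both as measured and with the trend removed. Of all genes it called 3.65% higher and 0.834% lower as measured, and 1.98% and 0.816% with the trend removed. By an unadjusted p below 0.05 there were 7 higher and 6 lower as measured and 9 and 5 with the trend removed, against 15.6%, 9.79%, 12.4% and 11.0% of all genes. DESeq2 called 3 higher and 0 lower, against 7.85% and 2.58% of all genes. The gene that rose both ways was CHD5, a CHD remodeler known mostly from neurons, which can serve as a NuRD ATPase. It measured 6.16 CPM in the library labelled ARID1B shRNA against 0.39, 0.39 and 0.59 CPM in the WT libraries, from 54 reads against 5, 5 and 9. Every WT library lay under the filter's minimum count of 10. Since the smallest group held 1 library, CHD5 was tested only through its level in the shRNA library. Its call follows in part from that filter and is given as a description. The log2 fold change was 3.72 (SE 0.43, edgeR adjusted p = 0.0214) as measured and 2.75 (SE 0.38, edgeR adjusted p = 0.0326) with the trend removed. Without WT library 2 the edgeR adjusted p was 0.0532. ARID1A, the alternative to ARID1B in canonical BAF, measured 204 CPM against 138, 133 and 170 CPM (edgeR log2 fold change 0.47, adjusted p = 0.203) and -0.22 with the trend removed.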

How the data were processed

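Raw read counts by gene were deposited separately for each library. The submitters' processing notes name HISAT2, HTSeq, DESeq2 and bcl2fastq and the GRCh37 (hg19) build; versions, annotation and strand setting were not given in the sources used here. Each file ends with 5 lines that name no gene, which were left out: reads outside genes were 5.27% in the library labelled ARID1B shRNA and 7.07% to 7.65% in the WT libraries, and ambiguous reads 6.75% and 5.93% to 6.25% (of genic, ambiguous and outside reads). No 2 libraries were duplicates (chi-square per degree of freedom 25.8 or more). Of 57820 identifiers 51996 (89.9%) had a current symbol. GC content and length came from GENCODE 29 on GRCh38 and promoters from RefSeq.

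Counts were tested with edgeR 4.0.16 in R 4.3.3: filterByExpr at a minimum count of 10 and total of 15 (17024 genes), TMM scaling, and the robust quasi-likelihood test with 2 residual degrees of freedom, all from WT, with Benjamini-Hochberg adjustment across every tested gene. SE is the log2 fold change over the square root of F. Trends were removed by a loess surface on GC content and length (span 0.3, genes of mean count 20 or more), with GC content known for 97.6% of tested genes. Length-scaled levels used the union of exons. Poisson intervals (95%) cover counting error only. Other settings were RLE scaling, DESeq2 1.42.0, limma-voom 3.58.1, no filter, each WT library left out and, chosen after seeing the data, edgeR's later quasi-likelihood method, GC and length trends removed one after the other, and trend removal with each WT library left out. The members, lists and tests were chosen with earlier results of these data known. Values in every library are given for ATPase genes, genes past the threshold and the 2 largest changes of each sign per class.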

Additional observations from a re-analysis of the deposited data

How the results depend on the processing

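As log2 fold changes, the sign turned with the GC and length trend removed for SMARCA4 (-0.38), SMARCB1 (-0.60), SMARCD3 (-0.0076), ACTL6A (0.12), PBRM1 (0.036), PHF10 (0.23), BICRA (-0.89), DPF1 (-0.85), DPF2 (-0.015), BCL7C (-1.02), BPTF (0.18), BAZ2A (-0.10), CHD1 (0.071), CHD6 (0.011), MTA2 (-0.080), HDAC1 (0.043) and SRCAP (-0.089). With the 2 trends removed one after the other it turned for SMARCA4 (-0.30), SMARCB1 (-0.54), SMARCD3 (-0.028), ACTL6A (0.14), PBRM1 (0.0033), PHF10 (0.19), BICRA (-0.74), DPF1 (-0.92), DPF2 (-0.028), BCL7C (-1.09), BAZ2A (-0.018), CHD1 (0.046), MTA2 (-0.052), GATAD2B (0.015) and HDAC1 (0.066). None of these genes was called with a trend removed, and the correction by construction moves genes by GC content. The sign of PHF10, close to 0, turned with RLE scaling (0.0029) and DESeq2 (0.0030). With 1 WT library left out, values ran from -0.25 to 0.0012 for SMARCC2 (positive without library 1), -0.065 to 0.24 for SMARCD3, -0.076 to 0.065 for PHF10 and -0.0010 to 0.49 for DPF1 (all 3 turned without library 2), and -0.011 to 0.072 for BAZ1B (negative without library 3).

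Members called higher numbered 4, against 8 with no filter, 6 with DESeq2 and 2 to 5 with 1 WT library left out; members called lower numbered 0, against 1 with DESeq2 (SMARCA1), 1 with no filter and 0 in each fit with 1 WT library left out. With the trend removed as well, leaving out WT library 1, 2 or 3 gave 4, 0 and 0 higher and 1, 0 and 0 lower. The calls that changed from edgeR as measured were these. With no filter SMARCA4 (edgeR adjusted p = 0.0129), BICRA (1.17e-05), CHD2 (0.0146), RUVBL2 (2.67e-05) and SMARCA1 (0.00017) passed as well. BICRA also passed with RLE scaling, DESeq2, limma-voom and without WT library 1, CHD2 with DESeq2 and with either trend removal, and SMARCA1 with DESeq2. BCL7B was lost with either trend removal and without WT library 2 or 3, and GATAD2A without WT library 2. Other remodeler genes called higher numbered 1, against 3 with DESeq2, 7 with no filter and 0 to 2 with 1 WT library left out, and those called lower 0, against 2 with no filter. Over all genes 621 were called higher and 142 lower by edgeR as measured, 2274 and 952 of 30709 with no filter, 1336 and 439 with DESeq2, 912 and 277 without WT library 1, 140 and 17 without WT library 2, 449 and 29 without WT library 3, 337 and 139 with the trend removed, 356 and 156 with the trends removed one after the other, and 624 and 376, 65 and 14, and 0 and 0 with the trend removed and WT library 1, 2 or 3 left out. With no filter the median log2 fold change of all genes was -0.27, against -0.05 as measured. ARID1B had a log2 fold change of 0.47 to 1.12 with 1 WT library left out. The SWI/SNF median was -0.12 with the trend removed and -0.14 with the trends removed one after the other, the ISWI median -0.0042 and the CHD median -0.048 with the trend removed; the NuRD median lay between -0.18 and -0.047 with 1 WT library left out. The cause of these changes was not tested.

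No paired analysis was possible because the ARID1B shRNA title carries no replicate number. A single library in that arm, and 3 WT libraries that differ in GC trend, limit every comparison.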
